A study of Mus musculus with 4 samples.

Results

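The genes described here are interferon-stimulated antiviral genes, the transcripts that cells switch on after an interferon binds its receptor. A list of 45 symbols was matched to all probe sets of an Affymetrix mouse expression array that carry a single gene symbol. Of these symbols, 43 had such a probe set, 65 probe sets in all, out of 18193 genes and 34945 single-gene probe sets in the series. The signals of Ifi44 and Isg15 were not analysed here, because no probe set was assigned to either gene alone.

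The study measured poly(A) RNA of dermal fibroblasts, which make the collagen matrix of the skin, from mice on a C57BL/6 background, with 1 array for each of 4 groups. The deleted culture received an adenovirus with Cre recombinase to remove Rbpj (labelled RBP-Jk), and its control culture received an adenovirus with GFP, so both in vitro arrays come from adenovirus-treated cells. The deleted in vivo array comes from fibroblasts of mice that carry loxP sites around Rbpj on both alleles and a ColI Cre transgene, whose further details the labels leave out, and its control carried the loxP alleles without Cre. Rbpj encodes the transcription factor at the end of the Notch pathway. Ages, the number of animals or cultures behind each array, and whether the in vivo cells were grown in dishes before lysis are not stated in the labels. Nothing says that the arrays of a system come from separate animals. With 1 array per group, p-values measure no spread within a group. In the fits of 4 arrays they rest on how far the control and the deleted arrays disagree about the difference between systems. That disagreement is combined with a variance shared over all genes.

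No group was replicated. The difference between culture and in vivo was tested over 2 arrays against 2, with deletion status as a covariate, and the differences between a deleted array and its control have no replicate check. Adenovirus, culture and array batch cannot be told apart: the bioB hybridisation spike averaged 8.36 and 8.39 (log2) on the in vitro arrays and 6.93 and 6.97 on the in vivo arrays. The excess of 3' over 5' signal for Pcx was 1.94 and 3.27 in deleted and control culture, and 0.8 and 1.09 in vivo. For Actb it was 0.39 and 1.09 against 0.15 and 0.37. For Gapdh, at 0.04 and 1.01 against 0.12 and 0.15, the systems overlapped. The part of RNA quality in the difference between culture and in vivo was not tested. Fibroblast markers were high throughout, with summed signals of 57100 to 71100 over 9 genes. Of these 1, Lum, was called higher in culture (adjusted p = 0.0411 in limma) and 0 lower. Lum read 12.62 and 12.11 in deleted and control culture, and 8.94 and 10 in the deleted and control in vivo arrays. The Rbpj probe sets differed between deleted and control by -1.34 to 0.10 in vitro and by -0.83 to -0.10 in vivo.

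Type I interferons signal through a receptor made of the IFNAR1 and IFNAR2 chains, and interferon gamma through IFNGR1 and IFNGR2. Receptor-bound kinases activate STAT2, which acts with IRF9 in a complex that binds the interferon-stimulated response element (ISRE) of target promoters. Interferon gamma acts mainly through a second element, the gamma-activated site (GAS). Viral nucleic acid in the cytoplasm is detected by RNA sensors, which induce interferon and, with it, their own genes. Fibroblasts respond to interferon and also produce interferon beta when infected.

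These elements were looked for in RefSeq promoter windows (GRCm38.p6), 300 bases from 250 before the annotated transcript start to 50 after it. The ISRE was searched as GAAA, 2 bases of any kind and GAAA, on either strand, and the GAS as TTCNNNGAA, which reads the same on both strands. Of 37 members with a window, 16 held an ISRE match (43.2%), Isg15 among them, against 3.99% of 27025 genes with a window. A GAS match was found in 10 members (27.0%), against 9.55% of genes. The following stretches are shown because their genes carry the contrast between culture and in vivo. They are written 5′ to 3′ on the strand of the gene, with the ISRE match in capitals, and stretches that touch an annotated gene are cut to 30 bases or fewer.
Ifit1, chr19:34640785-34640813 (+): TTTCACTTTCcagtctcagTTTCAGTTTC
Ifit3, chr19:34583397-34583426 (+): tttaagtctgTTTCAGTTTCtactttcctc
Rsad2, chr12:26456543-26456592 (-): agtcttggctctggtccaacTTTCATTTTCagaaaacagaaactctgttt
Gbp3, chr3:142559992-142560021 (+): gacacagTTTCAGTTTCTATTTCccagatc
Cxcl10, chr5:92349083-92349112 (-): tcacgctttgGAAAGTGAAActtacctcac
Gbp2, chr3:142620584-142620633 (+): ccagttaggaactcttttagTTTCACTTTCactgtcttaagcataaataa
Oas1a, chr5:120907526-120907552 (-): ttctcggGAAATGGAAACTGAAAatct
Bst2, chr8:71537567-71537622 (-): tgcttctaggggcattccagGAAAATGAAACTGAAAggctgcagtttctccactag
Igtp, chr11:58199502-58199551 (+): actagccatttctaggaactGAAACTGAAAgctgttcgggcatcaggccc
Irgm1, chr11:48871421-48871470 (-): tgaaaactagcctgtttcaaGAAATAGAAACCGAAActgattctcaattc
Ifit1, Gbp3, Oas1a, Bst2 and Irgm1 show 2 matches each. The stretch of Irf1, the factor whose window held a GAS and no ISRE match, is shown for contrast, with the GAS match in capitals.
Irf1, chr11:53769904-53769952 (+): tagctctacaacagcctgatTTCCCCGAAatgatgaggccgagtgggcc
In Bst2 a GAS match shares bases with the ISRE pair. A match is a description of the sequence, and no binding was measured.

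Signals of the interferon-stimulated genes were higher in adenovirus-treated culture than in vivo. By the brightest probe set of each gene, both culture arrays lay above both in vivo arrays for 39 of 43 measured members. This arrangement was found in 25.2% of all genes. The median difference over the 43 was 1.62 on the log2 scale (3.08-fold), with a range from -0.55 to 4.5, while the median of all 18193 genes was -0.06. It was 1.58 between the control arrays and 1.44 between the deleted arrays, which share no array. In both of these comparisons 27 of 43 members were at least 2-fold higher in culture, against 2.95% of all genes. Members were chosen with earlier results of these data known, so the shares of members here and below describe the list. They do not test it against all genes.

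In the limma test across 10916 genes above a level cutoff (a mean log2 signal of 5.28), 24 of the 40 members tested rose in culture at an adjusted p of 0.05 and 0 fell. Over all genes tested, 2.77% were called higher and 1.35% lower. Oas3, Mx1 and Ube2l6 were under the cutoff, and Mx2 passed only through its culture signals, with both in vivo arrays under it. At an adjusted p of 0.01 or without the level cutoff 0 members were called, and 0 of all genes. For members as for all genes, the calls depended on having both culture arrays. The median over the members tested was between 1.49 and 1.74 when any 1 array was left out.

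**Figure D1:**
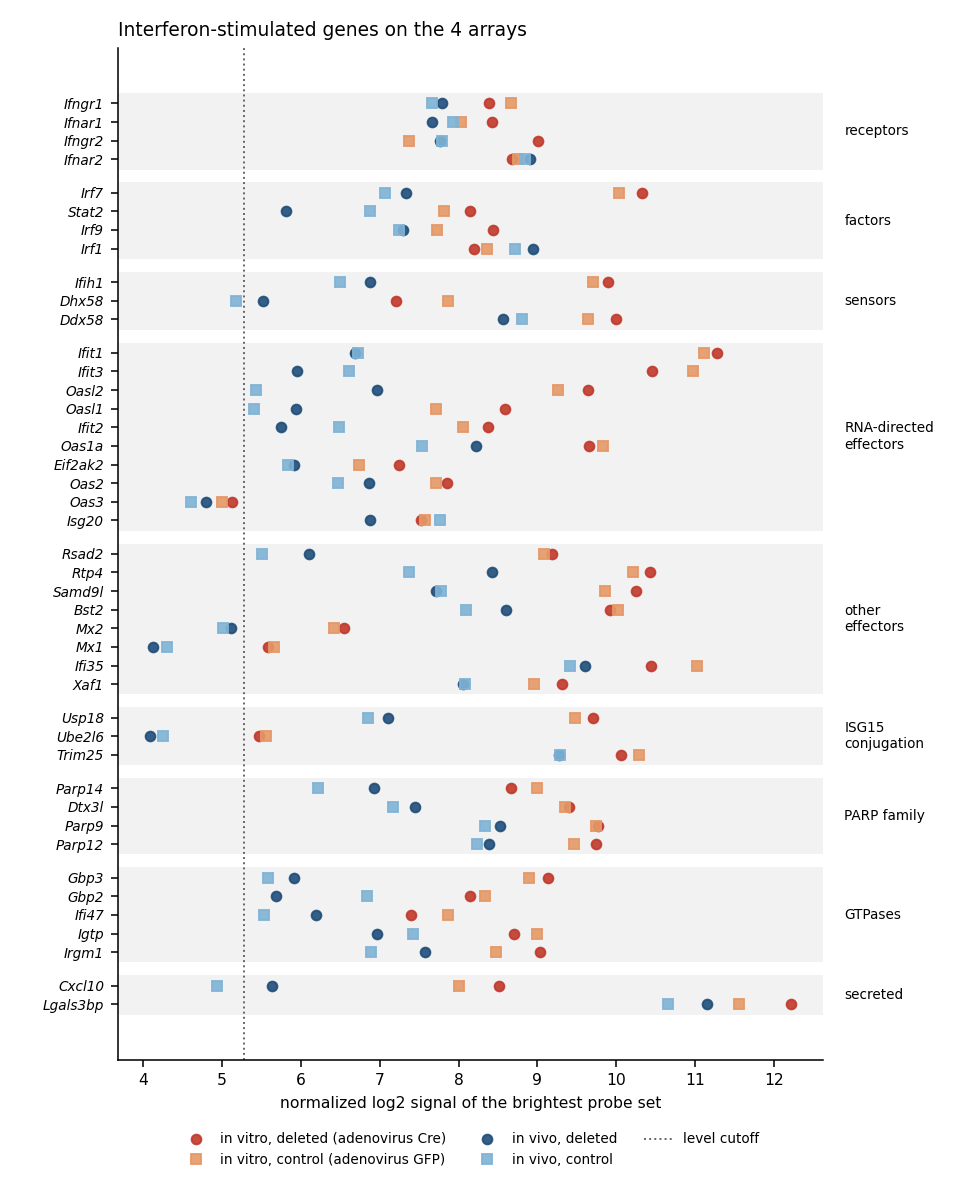
Normalized log2 signal (x axis) of the brightest probe set of each of the 43 measured members (rows, grouped by role) on the 4 arrays, with 1 point per array and the level cutoff of 5.28 as a dotted line. For 39 members both culture points lie to the right of both in vivo points; levels of different genes are not comparable, since each probe set binds with its own strength.

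The receptor chains, which carry the interferon signal into the cell, did not pass the test. Values are given from here on in the order deleted culture, control culture, deleted in vivo, control in vivo. Counts by role stand beside the shares of all genes. Both culture arrays lay above both in vivo arrays in 25.2% of genes, and 2.77% of those tested were called higher. Ifnar1 read 8.43, 8.03, 7.66 and 7.93, and Ifnar2 read 8.68, 8.76, 8.90 and 8.84. The culture values of Ifnar1 lay above the in vivo values by a gap of only 0.10, and those of Ifnar2 lay below both in vivo values, a difference of -0.15 that became 0.09 with arrays centred on their medians. Ifngr1, the ligand-binding chain of the interferon gamma receptor, read 8.39, 8.67, 7.79 and 7.66, a difference of 0.81 ± 0.22 (SE, adjusted p = 0.105 in limma). Ifngr2, its signalling partner, read 9.01, 7.37, 7.77 and 7.79 on its brighter probe set. There the deleted culture stood apart from the other arrays and the culture values overlapped the in vivo values. Its other probe set read 6.98, 6.68, 5.95 and 6.33, without overlap.

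Among the transcription factors, Irf7, the factor that amplifies interferon alpha production, rose in culture by 2.98 ± 0.20 (SE, 7.87-fold, adjusted p = 0.0151 in limma). Its values were 10.33, 10.03, 7.33 and 7.07, with no overlap. Stat2 read 8.15, 7.82, 5.81 and 6.88 (1.64 ± 0.38, adjusted p = 0.0836), and Irf9, its DNA-binding partner, read 8.44, 7.72, 7.30 and 7.25 (0.80 ± 0.25, adjusted p = 0.129). Both were higher on each culture array than on either in vivo array without passing the test, Stat2 on its brightest probe set only. The second probe set of Stat2 read 8.38, 6.88, 6.02 and 7.02, and there the systems overlapped. Irf1, a factor best known from the interferon gamma response, read 8.19, 8.36, 8.94 and 8.71, lower on both culture arrays (-0.55 ± 0.22, adjusted p = 0.186).

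All RNA sensors were higher on both culture arrays, and 2 of 3 were called. Ifih1 encodes MDA5, a sensor of long double-stranded RNA, and read 9.90, 9.70, 6.88 and 6.49, a rise of 3.11 ± 0.21 (8.66-fold, adjusted p = 0.0151 in limma). Dhx58 encodes LGP2, a regulator of the other sensors, and read 7.20, 7.87, 5.52 and 5.18, a rise of 2.19 ± 0.31 (adjusted p = 0.0406). Its other probe sets lay under the cutoff and differed by 0.55 and 0.38. Ddx58 encodes RIG-I, a sensor of RNA with a triphosphate end, and read 10, 9.64, 8.56 and 8.81. Its difference of 1.13 ± 0.25 did not pass (adjusted p = 0.0778), although no array overlapped on this brightest probe set. Its other probe sets differed by 1.22 and, under the cutoff and with the systems overlapping, by 0.05.

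The RNA-directed effectors held the largest differences of the members. Ifit1, which binds RNA without a fully methylated cap and blocks its translation, read 11.28, 11.12, 6.68 and 6.72, a 22.7-fold rise (4.5 ± 0.21, adjusted p = 0.0151 in limma). Ifit3, of the same gene family, read 10.45, 10.98, 5.95 and 6.61, a 21.6-fold rise (4.44 ± 0.20, adjusted p = 0.0151). The lower culture array exceeded the higher in vivo array by 4.40 and 3.85. Mouse Ifit3 has a near-identical copy, Ifit3b, so its signal may come from either gene.

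Ifit2 read 8.37, 8.06, 5.75 and 6.48 (2.10 ± 0.31, adjusted p = 0.0447). The oligoadenylate synthetases make the second messenger that activates RNase L, and the Oasl genes encode their relatives. Oasl2 read 9.64, 9.26, 6.97 and 5.43 (3.25 ± 0.33, adjusted p = 0.0250 in limma). Oasl1 read 8.59, 7.71, 5.94 and 5.41 (2.48 ± 0.22, adjusted p = 0.0191). Oas1a, whose probe set may also bind RNA of the close copy Oas1g, read 9.66, 9.83, 8.22 and 7.54 (1.87 ± 0.28, adjusted p = 0.0449). All of these rose in culture with no overlap, and Oasl2 was the member with the widest gap between its in vivo arrays.

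Oas2 read 7.85, 7.71, 6.86 and 6.47 (1.11 ± 0.21, adjusted p = 0.0624 in limma). Eif2ak2, the gene of the RNA-activated kinase PKR, read 7.25, 6.73, 5.91 and 5.83 (1.12 ± 0.22, adjusted p = 0.0686). Both were higher on both culture arrays without passing, but another probe set of Eif2ak2 read 7.12, 5.86, 6.42 and 6.27, and there the systems overlapped. Isg20, an RNA exonuclease, read 7.52, 7.57, 6.87 and 7.76, and its groups overlapped. Oas3 stayed under the cutoff on all 4 arrays, from 4.61 to 5.13. In this group 6 of 9 tested genes were called higher.

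Of the other effectors, Rsad2, which encodes viperin, read 9.19, 9.08, 6.10 and 5.51, a rise of 3.33 ± 0.23 (10.1-fold, adjusted p = 0.0151 in limma). Its 3 probe sets differed by 3.33, 3 and 1.47, all in the same direction. Rtp4, an interferon-induced chaperone of receptors, read 10.43, 10.21, 8.43 and 7.37 (2.42 ± 0.28, adjusted p = 0.0313). Samd9l, a translation inhibitor, read 10.25, 9.86, 7.71 and 7.78 (2.31 ± 0.23, adjusted p = 0.0240). Neither overlapped between the systems. Bst2, the gene of tetherin, which holds budding virus on the cell surface, read 9.92, 10.02, 8.6 and 8.10 (1.62 ± 0.24, adjusted p = 0.0449).

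Mx2 read 6.54, 6.42, 5.11 and 5.01 and was called (1.42 ± 0.20, adjusted p = 0.0406 in limma), but it passed the cutoff only through its culture signals. Mx1 read 5.58, 5.66, 4.12 and 4.30 and was not tested. Common laboratory strains, C57BL/6 among them, carry a defective Mx1 allele. Ifi35 read 10.44, 11.03, 9.60 and 9.41 (1.23 ± 0.27, adjusted p = 0.0779 in limma). The proapoptotic factor Xaf1 read 9.31, 8.96, 8.06 and 8.08 (1.06 ± 0.22, adjusted p = 0.0716). Neither passed, although no array overlapped on their brightest probe sets. The group had 5 of 7 tested genes called higher, Mx2 among them, and 0 lower.

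Usp18, the protease that removes ISG15 from proteins and damps receptor signalling, read 9.70, 9.48, 7.11 and 6.85, a rise of 2.61 ± 0.20 (6.11-fold, adjusted p = 0.0165 in limma). Ube2l6, the enzyme that passes ISG15 to its targets, read 5.47, 5.56, 4.08 and 4.25, with its in vivo signals under the cutoff. Trim25, a ubiquitin ligase that activates RIG-I, read 10.06, 10.29, 9.27 and 9.29 (0.89 ± 0.21, adjusted p = 0.0836). Both genes were higher on each culture array than on either in vivo array.

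The ADP-ribosyltransferase group rose together, with 4 of 4 genes called. Parp14 read 8.67, 9, 6.93 and 6.22 (2.26 ± 0.31, adjusted p = 0.0402 in limma). Dtx3l, a ubiquitin ligase that works with PARP9, read 9.40, 9.35, 7.45 and 7.17 (2.06 ± 0.21, adjusted p = 0.0248). On their brightest probe sets none of the group overlapped between the systems. The other probe set of Parp14, under the cutoff by its mean, read 4.71, 4.81, 4.74 and 4.61, and there the systems overlapped. Parp9 read 9.77, 9.74, 8.53 and 8.33 (1.33 ± 0.20), and Parp12 read 9.74, 9.47, 8.39 and 8.23 (1.29 ± 0.20). Their adjusted p-values of 0.0462 and 0.0474 are close to the threshold.

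The interferon-inducible GTPases, which attack the membranes of intracellular pathogens, had 4 of 5 genes called. Gbp3 read 9.13, 8.89, 5.91 and 5.58, a rise of 3.27 ± 0.20 (9.62-fold, adjusted p = 0.0151 in limma). Gbp2 read 8.15, 8.33, 5.68 and 6.84 (1.98 ± 0.30, adjusted p = 0.0454), and its second probe set differed by 1.44. Both genes were higher on each culture array. Igtp read 8.70, 9, 6.96 and 7.42 (1.67 ± 0.20, adjusted p = 0.0335), and Irgm1, a regulator of the other GTPases, read 9.03, 8.48, 7.57 and 6.89 (1.53 ± 0.20, adjusted p = 0.0386). Ifi47 read 7.4, 7.87, 6.19 and 5.53 and did not pass (1.77 ± 0.33, adjusted p = 0.0616).

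Of the secreted products, Cxcl10, the chemokine that draws activated T cells, read 8.51, 8, 5.63 and 4.94, a rise of 2.97 ± 0.20 (7.85-fold, adjusted p = 0.0151 in limma). Its in vivo control signal was under the cutoff. Lgals3bp, a secreted galectin ligand, read 12.22, 11.56, 11.15 and 10.66 (0.98 ± 0.20, adjusted p = 0.0725). Receptors had a median difference of 0.42, factors of 1.22, sensors of 2.19 and all 32 measured effectors and other targets of 1.72; with 3 or 4 genes in each of the smaller groups, no test of the groups was made.

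**Figure D2:**
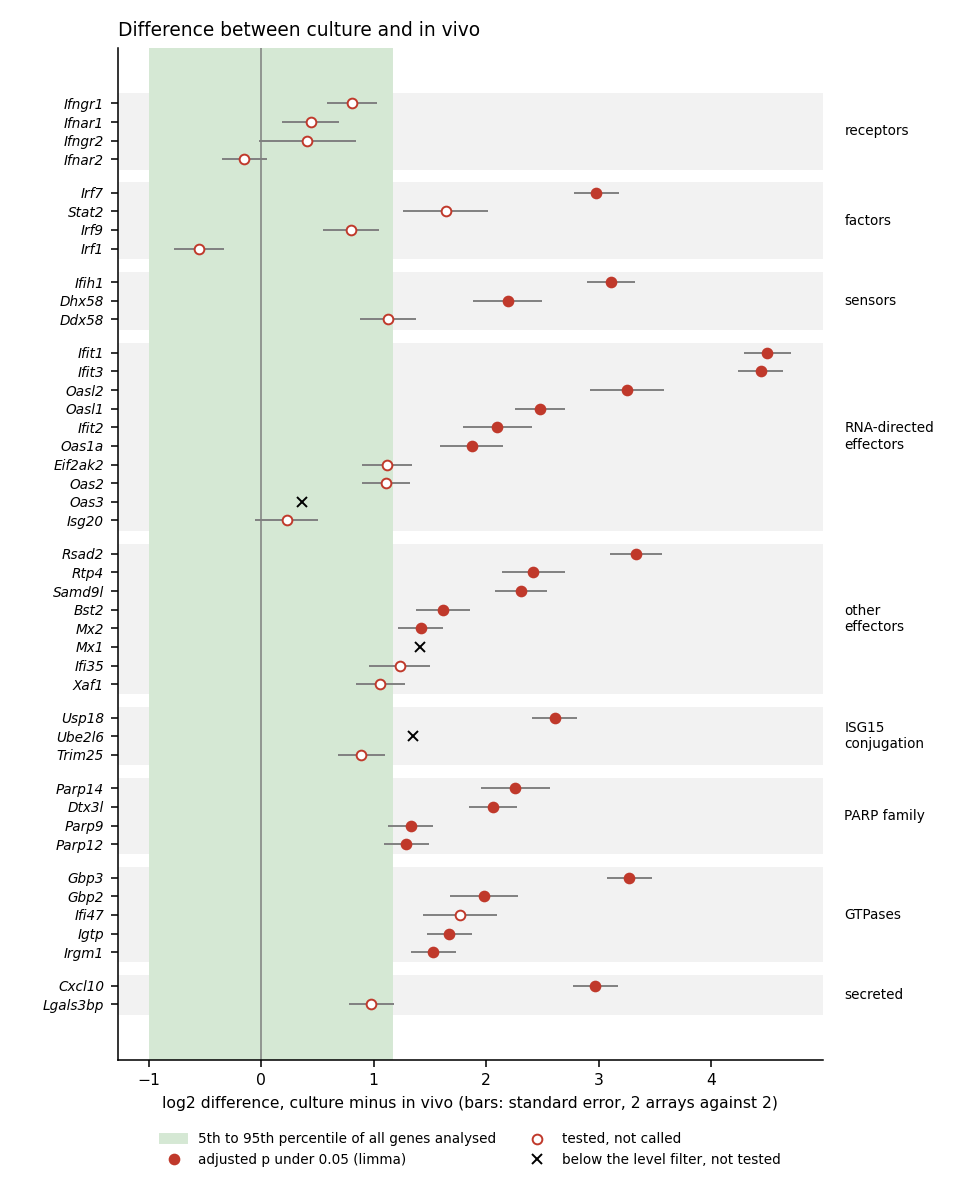
Log2 difference between culture and in vivo (x axis, mean of 2 arrays minus mean of 2) for each measured member (rows, by role), with the standard error of the limma fit as bars; filled points passed an adjusted p of 0.05, open points did not, and crosses were under the level cutoff and not tested. The green band spans the 5th to the 95th percentile of all genes analysed (-0.99 to 1.16); the 4 receptors lie inside it and Ifit1 and Ifit3 lie farthest to the right.

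The probe sets of a gene mostly gave the same direction in this comparison. Of 65 probe sets 60 were higher in culture, and among 15 genes with several probe sets 12 had all of them on the same side of 0. The exceptions were Ifnar1, Ifnar2 and Xaf1. The dimmer probe set of Xaf1 read 4.93, 4.88, 7.95 and 5.18, a difference of -1.66, set by the deleted in vivo array, whereas the brightest gave 1.06. Of members with a promoter window, 11 of 18 that were called in culture held an ISRE match, as did 4 of 17 that were measured and not called, and 4 and 6 held a GAS match.

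Other genes of the interferon pathway were taken from 6 lists. No interferon gene passed the cutoff, and Ifnb1, which encodes interferon beta, read 4.25, 4.01, 4.78 and 4.89. Ifna1, which encodes an interferon alpha, read 4.75, 4.6, 5.57 and 5.67, lower on both culture arrays and not tested. Among kinases and STATs, Jak1 and Tyk2, which serve the type I receptor, differed by 0.31 and 0.08, and Jak2, which serves the interferon gamma receptor, fell in culture by 1.38 (SE 0.20, adjusted p = 0.0420 in limma). Of the other interferon regulatory factors 0 of 3 tested were called, with Irf5 at 0.31 and Irf3, the factor activated by RNA sensing, at -0.30.

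Of 12 tested genes of nucleic acid sensing, Tlr3, an endosomal sensor of double-stranded RNA, was called higher (1.57 ± 0.20, adjusted p = 0.0366 in limma, in vivo signals of 4.61 and 5.00 under the cutoff) and 0 lower. Sting1, the adaptor of cytoplasmic DNA sensing, was at -1.16 (adjusted p = 0.0575). Among negative regulators, Socs3, an inhibitor of JAK kinases, read 7.03, 7.31, 10 and 9.52 and fell in culture by 2.59 (SE 0.27, adjusted p = 0.0250). Socs1, the inhibitor most tied to interferon gamma, was at -0.36 and was not called.

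Among 29 tested interferon-stimulated genes that are no members, 11 were called higher in culture and 0 lower, with a median of 0.65 over the 37 measured. They were the GTPases Iigp1 (3.46), Gbp6 (2.78), Gbp7 (2.06) and Irgm2 (1.80), and Ifi27l2a (3.41), Trim30a (2.64), Phf11d (2.59), Trim21 (1.75), Tdrd7 (1.45), Sp100 (1.30) and Tor3a (1.28). Sp100 passed the cutoff only through its culture signals, with in vivo values of 5.01 and 4.69. Trim34a (2.07, adjusted p = 0.0550 in limma) and Nmi (1.27, adjusted p = 0.0807) did not pass. Nlrc5, a regulator of MHC class I genes, read 5.90, 6.17, 4.35 and 4.27 and was under the cutoff by its mean. Not every such gene was higher: Ifitm3, a restriction factor of viral entry, read 12.54, 12.60, 12.36 and 12.34 (0.22), and Apobec3 was at -1.23 (adjusted p = 0.0501 in limma). Past 2-fold between deleted and control were Ifitm1 in vitro (-1.29) and Ifi27l2a in vivo (1.32).

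**Figure D3:**
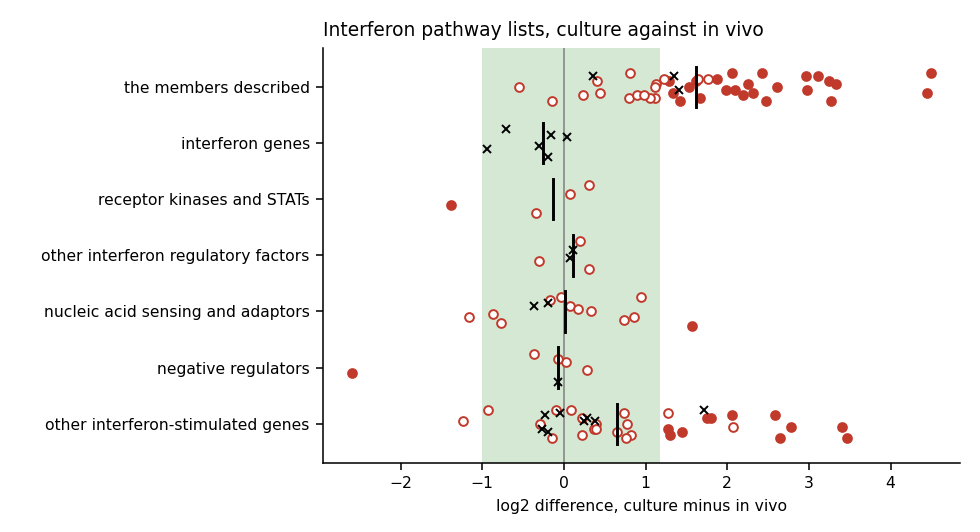
Log2 difference between culture and in vivo (x axis) for the members and for 6 lists of other interferon pathway genes (rows, 1 point per gene, spread vertically for visibility). Filled points passed an adjusted p of 0.05 in limma, open points did not and crosses were under the level cutoff; black bars are medians over measured genes, at 1.62 for the members and 0.65 for the other interferon-stimulated genes, and the green band is that of the member differences (-0.99 to 1.16).

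Immune cells also express interferon-stimulated genes, and in bulk RNA fewer cells of a type and less RNA per cell cannot be told apart. The 8 macrophage markers had summed linear signals of 692 and 788 in culture and 450 and 550 in vivo. Of the 4 tested, Cd68 was called higher in culture (1.44 ± 0.21, adjusted p = 0.0423 in limma), and it passed the cutoff only through its culture signals, with in vivo values of 4.63 and 4.58. Lyz2 was at 1.36 (adjusted p = 0.0680), Csf1r at -0.34 and Cd14 at -0.35. Ptprc, the pan-leukocyte marker, and Itgam were under the cutoff on all 4 arrays. Sums of 7 dendritic cell markers were 285 and 326 in culture and 520 and 257 in vivo, with Itgax, Irf8 and H2-Ab1 under the cutoff on every array. In the deleted and control in vivo arrays Ly6d read 7.02 and 4.86, and Cd74 read 7.89 and 6.48. Flt3 (5.41 and 5.29) and Siglech (5.66 and 5.25) stayed within 2-fold there. Sums of 7 lymphocyte and NK cell markers were 160 and 169 against 176 and 189, with Cd3g, Cd2, Ms4a1, Nkg7 and Ncr1 under the cutoff on every array. The part of these cells in the culture signal was not tested.

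Within the in vitro pair, deletion of Rbpj was accompanied by small differences in these genes. Of 40 members above the cutoff, 1 was at least 2-fold higher in the deleted culture and 0 were lower, against 0.788% and 1.15% of all genes. The median over the 43 measured members was 0.14, with 27 higher and 16 lower, and 44.5% of all genes were higher. Ifngr2, the member past 2-fold, was at 1.63 (3.10-fold) on its brighter probe set and at 0.30 on the other.

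The next largest differences were those of Oasl1 (0.88), Irf9 (0.73), Lgals3bp (0.67) and Dhx58 (-0.67). The other probe sets of Dhx58, both under the cutoff, were at 1.02 and -0.48. Ifit1 (0.16), Irf7 (0.30) and Ifih1 (0.20), all far higher in culture than in vivo, differed little between Cre and GFP cells. Probe sets disagreed more often here: 7 of 15 genes had all of them on the same side of 0. The second probe set of Stat2 was at 1.5 against 0.32 for the brightest, and 1 of Eif2ak2 was at 1.26 against 0.52. RNA quality differed between these arrays, since the excess of 3' over 5' signal for Gapdh was 1.01 in the control culture and 0.04 in the deleted one. The part of RNA quality in the in vitro differences was not tested.

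Within the in vivo pair, 2 of 40 members lay 2-fold or more above the control and 2 lay as far below it, against 2.81% and 3.81% of all genes. Oasl2 was higher by 1.54 (2.90-fold) and Rtp4 by 1.07 (2.09-fold). Gbp2 was lower by -1.15 on its brightest probe set and by -0.71 on the other, and Stat2 by -1.07 and -1. Rtp4 had a second, dim probe set at 0.10. The median over the 43 members was 0.19, with 28 higher and 15 lower, and 47.5% of all genes were higher.

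Members of the same role differed in direction. Oas1a (0.67), Oasl1 (0.53) and Oas2 (0.39) were higher in the deleted in vivo array, whereas Isg20 (-0.89), Ifit2 (-0.73) and Ifit3 (-0.65) were lower, and Ifit1 was at -0.04. Among GTPases Irgm1 (0.68) and Ifi47 (0.66) stood against Gbp2 and Igtp (-0.45). All ADP-ribosyltransferase group members were higher, from 0.17 to 0.72, and both secreted products were higher, Cxcl10 by 0.68 and Lgals3bp by 0.49. The dimmer probe set of Xaf1 was at 2.76, against -0.02 for the brightest.

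Markers of other cells differed within this pair. The summed signal of 9 keratinocyte markers was 6210 in the deleted and 546 in the control in vivo array, beside 817 and 1200 in deleted and control culture. Of the 7 above the cutoff 5 were at least 2-fold higher in the deleted in vivo array, but Krt10 was at -0.33 and Epcam at 0.07. Krt1 (-0.19) and Trp63 (-0.45), under the cutoff by their means, were lower. The sum of 9 skeletal muscle markers was 3480 and 773 in the deleted and control in vivo arrays. The part of these cells in the in vivo differences was not tested.

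**Figure D4:**
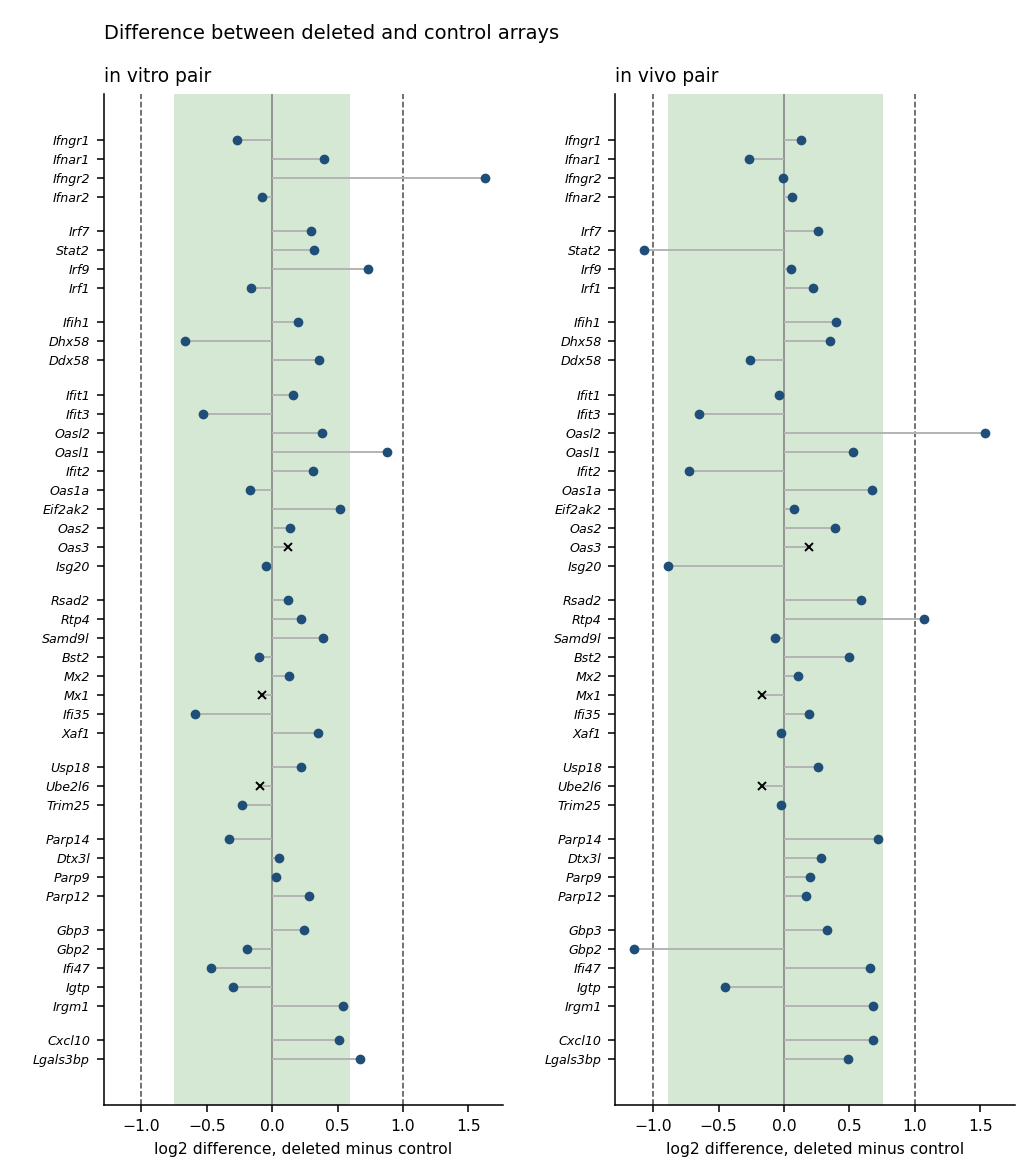
Deleted minus control signal (x axis, log2) for each measured member (rows, in the order of the level plot), in vitro on the left and in vivo on the right, 1 array against 1. Dashed lines mark 2-fold, crosses are genes under the level cutoff and the green bands span the 5th to the 95th percentile of all genes analysed (-0.74 to 0.59 in vitro, -0.88 to 0.75 in vivo); Ifngr2 passes 2-fold on the left, and Oasl2, Rtp4, Gbp2 and Stat2 on the right.

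A deletion effect shared by both systems was tested with limma over the 4 arrays, with system as a covariate. No member was called, and 0% of the 10916 genes were called in either direction, while 6.95% had an unadjusted p under 0.05. Of the 40 members 6 did. Ifit3 was lower (-0.59 ± 0.20) and Oasl2 (0.96 ± 0.33), Oasl1 (0.70 ± 0.22), Irgm1 (0.61 ± 0.20), Cxcl10 (0.59 ± 0.20) and Lgals3bp (0.58 ± 0.20) were higher in both deleted arrays than in their controls, each with an adjusted p of 0.679. The SE of a member in this fit ranged up to 0.43, that of Ifngr2. A p that misses the threshold with 4 arrays does not show that deletion leaves these genes as they were.

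**Figure D5:**
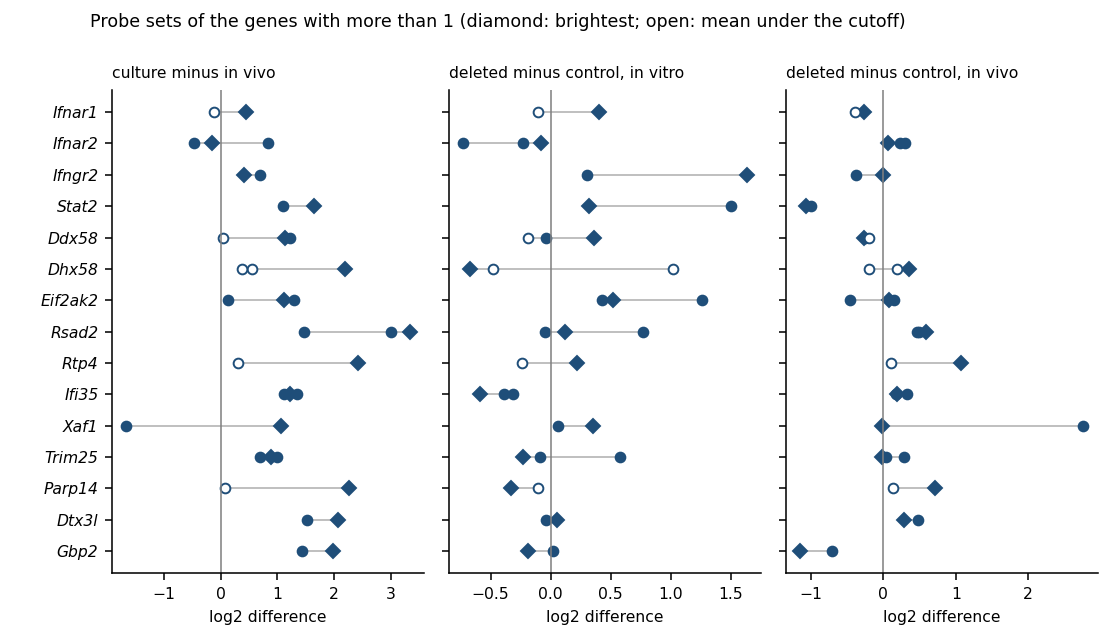
Log2 differences (x axes) of every probe set of the 15 members with more than 1, for culture minus in vivo and for deleted minus control in each system; diamonds are the brightest probe set and open circles have a mean under the level cutoff. All probe sets of a gene share a sign for 12 genes on the left, 7 in the middle and 11 on the right.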

How the data were processed

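The deposited table gives a log2 signal for each of 45101 probe sets on 4 arrays, between 2.87 and 13.79, with 0 missing. The scale was read from the values, and the labels do not name the software behind them. Per the labels' protocols, biotin-labelled antisense cRNA was made from poly(A) RNA with an oligo(dT) primer. Values were quantile normalized with limma 3.58.1 (R 4.3.3). Names came from the annotation of the array platform (34945 with 1 symbol, 932 with several, 9211 unlisted), and 34741 symbols matched RefSeq (GRCm38.p6). Each gene took its brightest probe set, and genes at or above the 40th percentile of mean signal (log2 5.28) were tested with lmFit and eBayes on system and deletion (1 residual degree of freedom), adjusted by Benjamini-Hochberg at 0.05. Within a pair, differences were counted at 2-fold. The number of arrays limits the precision. The procedures were tested on simulated data.

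The members and lists were chosen with earlier results of these data known. Values on all arrays are given for every receptor, factor and sensor and for members past 2-fold in a comparison. From each list of other pathway genes the text names those above the level cutoff and past 2-fold in a comparison, or else up to 2 with the largest difference. Members below 2-fold, Ifnb1, Ifna1, Nlrc5, Jak1, Tyk2, Socs1 and Ifitm3 were named after their values were seen. Alternatives were other normalizations (as deposited, median-centred, cyclic loess), no filter or the 60th percentile, a gene value taken as the median of its probe sets, removal of _x_at and _s_at probe sets, an offset of the 20th percentile of linear signal before log2, other thresholds and models, a variance trend, and leaving out each array.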

Additional observations from a re-analysis of the deposited data

Results flagged for a closer look

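Members at least 2-fold apart in 1 deletion comparison and of opposite sign in the other were looked at again. Ifngr2 was at 1.63 in vitro and at -0.01 in vivo, and Stat2 at 0.32 in vitro and at -1.07 in vivo (log2, deleted minus control). With 1 array per group the difference between the systems was not tested, and the in vivo value of Ifngr2 is close to 0.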

How the results depend on the processing

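The count of members called higher in culture was 24, and it was 10 where a gene took the median of its probe sets, 15 with an offset added before log2, 0 without the level filter and 0 at an adjusted p of 0.01. Leaving out 1 array used a model of system only, in which a lone array is assumed to vary like the others. For members as for all genes, the calls then depended on having both culture arrays. Other alternatives run on all 4 arrays gave 21 to 33, and 0 members were called lower in any. The median member difference of 1.65 over those tested became 1.84 as deposited, 1.94 after median centring, 1.42 with probe set medians, 1.55 with the offset and 1.49 to 1.74 without 1 array. The median of all genes was then 0.11 as deposited and 0.20 after centring, against -0.03. Over all genes, calls in culture numbered 302 higher and 147 lower (67.3% higher), 322 and 72 as deposited (81.7%), 673 and 134 after centring (83.4%), 64 and 21 with probe set medians, 178 and 57 with the offset, 834 and 743 at an adjusted p of 0.10, 468 and 355 with a variance trend, and 0 without the filter or at 0.01. In vitro, the 1 member past 2-fold became 0 with probe set medians, and at 1.5-fold 4 were higher and 2 lower. In vivo, 8 were higher and 5 lower at 1.5-fold and 0 and 0 at 3-fold. The share of all genes past 1.5-fold or 3-fold was not counted, so these counts have no background to be read against. The 2 lower in vivo became 1 as deposited, with cyclic loess, with probe set medians and without _x_at and _s_at probe sets, and 0 with the offset. The causes were not tested. No member was called for deletion under any alternative run. Of the differences between culture and in vivo, 4 that were not called changed sign under an alternative: Ifnar2 to 0.09 after centring, Xaf1 to -0.30 with probe set medians, Ifngr2 to -0.41 without the deleted culture array (range -0.41 to 1.23 without 1 array) and Isg20 to -0.21 without the deleted in vivo array (range -0.21 to 0.67). No paired analysis was possible because the labels number no replicates. Signals under the cutoff limit what can be said of Oas3, Mx1 and Ube2l6.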
